A study of Mus musculus with 8 samples.

Results

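Transcripts of 9 genes that mark pancreatic duct and embryonic progenitor epithelium were followed in αTC1-6 cells, a clonal mouse alpha cell line that makes glucagon. The genes were given by name, with no threshold on measured values, out of 75078 genes in the deposited table, and all 9 were matched by their Ensembl identifiers. They were the transcription factor genes Sox9 and Onecut1, the keratin genes Krt7, Krt8, Krt18 and Krt19, the osteopontin gene Spp1, the adhesion gene Epcam and the chloride channel gene Cftr. The cells had received either a plasmid for overexpression of Yy1, a zinc finger protein that activates some targets and represses others, in 4 libraries (numbered 45, 46, 47 and 48), or an empty plasmid in 4 libraries (31, 32, 33 and 34). Cells of both groups were transfected 24 h after seeding, in DMEM given as 11 mM in the series' design text. The line stems from a tumour of mice that carried the SV40 large T antigen under the glucagon promoter, and it is a single clone, so it stands for transformed alpha cells only. The time of harvest and whether the libraries came from separate cultures are not given in the sources used here, so p-values measure the spread between these libraries, which may be technical.

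In the pancreas, duct cells and the embryonic progenitors from which ducts, acini and islets arise share an epithelial program. Sox9 maintains the progenitor pool and Onecut1 acts with it to start endocrine differentiation, and both persist in adult ducts. Keratins form filaments only as pairs of a type II and a type I chain, with Krt7 and Krt8 being type II and Krt18 and Krt19 type I. Epcam binds neighbouring epithelial cells, Cftr carries the anions that drive duct fluid, and osteopontin is a secreted ligand of integrins. Mature endocrine cells make little Sox9 or Krt19.

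Of the 9 genes, 3 (Sox9, Krt7 and Spp1) were detected well enough to be tested and 6 were not. The 3 stood at 3.43 to 9.02 CPM (estimated counts scaled to a common library total), and the other 6 had at most 10 counts, or 0.337 CPM, in any library. None of the 3 passed the test between the plasmids over all genes. Against the label of duct epithelium, Krt19, Krt8, Krt18, Epcam, Onecut1 and Cftr were thus at or near 0 with either plasmid. Sox9, Krt7 and Spp1, also markers of it, were detected with both. In RNA from a whole culture, fewer cells of a type and less RNA per cell cannot be told apart.

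The libraries held 29679867 to 33347196 estimated counts with the Yy1 plasmid and 20679565 to 30570342 with the empty plasmid. Yy1 itself stood at 5233 ± 464 CPM with the Yy1 plasmid and 175 ± 5.33 CPM with the empty plasmid (SD, n = 4 each), which matched the labels. Of 17 listed alpha cell genes, 16 were detected well enough to be tested and 0 of these were called. The other, Gc, had 0 counts in all 8 libraries. Gcg, which encodes proglucagon, had 21291 ± 372 CPM with the Yy1 plasmid and 21228 ± 547 CPM with the empty plasmid (SD, n = 4 each). Of 22 acinar genes, which mark the digestive enzyme cells of the pancreas, 5 could be tested, and 5 had 0 counts in all 8 libraries. Their summed level ran from 14.1 to 14.8 CPM with the Yy1 plasmid and from 13.2 to 14 CPM with the empty plasmid. Yy1 plasmid 48 and empty plasmid 31 stood apart from the other 6 libraries in keratins of stratified epithelia, described with the keratins.

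**Figure D1:**
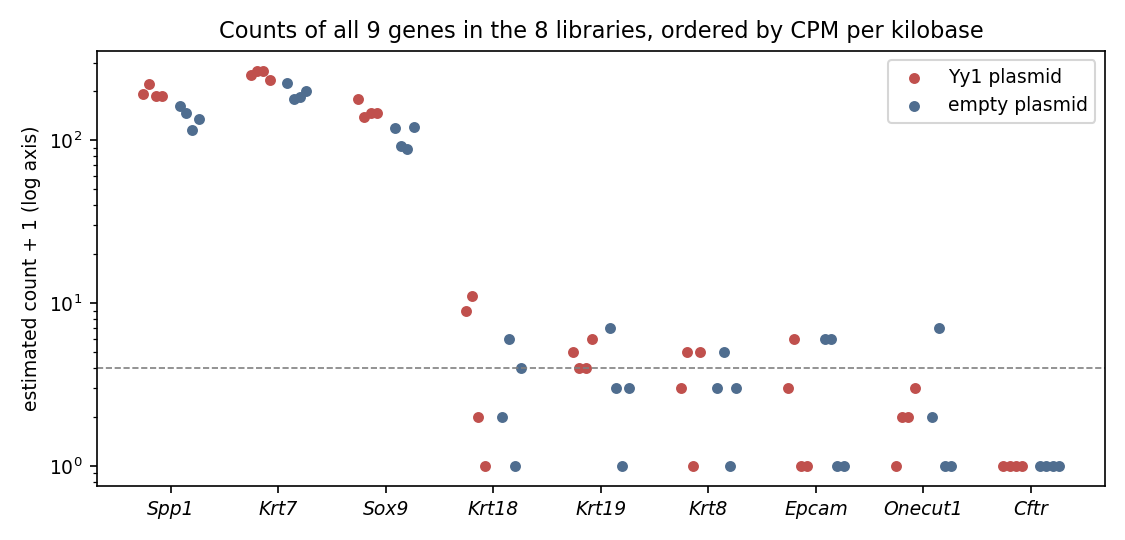
Estimated counts plus 1 (log axis) of the 9 genes, ordered from left to right by CPM per kilobase of exons, with a point for each of the 4 libraries with the Yy1 plasmid (red, left) and the 4 with the empty plasmid (blue, right). The dashed line marks 3 counts. Spp1, Krt7 and Sox9 lie at 87 to 267 counts in every library, and the other 6 genes lie at 0 to 10.

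The promoters of 4 of the genes are shown because their transcripts differ in level, Krt7 and Spp1 being detected while Krt8 and Krt18 were at or near 0, and because the overexpressed factor binds promoters. Each is the RefSeq window of 250 bases before to 50 bases after a gene's start in the mouse build GRCm38.p6, given 5′ to 3′ on the gene's strand. Krt7 lies at chr15:101412153-101412452 (+), Krt8 at chr15:102004293-102004592 (-), Krt18 at chr15:102027966-102028265 (+) and Spp1, of whose 2 listed starts the upstream is shown, at chr5:104434861-104435160 (+). Capitals mark the short Yy1 core CCAT and the letters TATAAA on either strand, so that ATGG and TTTATA are matches on the other strand.
Krt7: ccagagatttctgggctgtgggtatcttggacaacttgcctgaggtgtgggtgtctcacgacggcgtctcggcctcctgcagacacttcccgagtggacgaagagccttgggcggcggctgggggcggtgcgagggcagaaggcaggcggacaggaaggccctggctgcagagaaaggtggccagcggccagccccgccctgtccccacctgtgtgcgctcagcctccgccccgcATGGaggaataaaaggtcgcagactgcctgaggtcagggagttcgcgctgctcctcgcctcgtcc
Krt8: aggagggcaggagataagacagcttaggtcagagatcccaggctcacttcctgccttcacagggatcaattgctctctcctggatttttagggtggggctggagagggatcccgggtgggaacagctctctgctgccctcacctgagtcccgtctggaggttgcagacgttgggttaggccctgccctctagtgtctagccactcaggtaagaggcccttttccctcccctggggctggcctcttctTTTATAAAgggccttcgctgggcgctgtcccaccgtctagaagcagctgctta
Krt18: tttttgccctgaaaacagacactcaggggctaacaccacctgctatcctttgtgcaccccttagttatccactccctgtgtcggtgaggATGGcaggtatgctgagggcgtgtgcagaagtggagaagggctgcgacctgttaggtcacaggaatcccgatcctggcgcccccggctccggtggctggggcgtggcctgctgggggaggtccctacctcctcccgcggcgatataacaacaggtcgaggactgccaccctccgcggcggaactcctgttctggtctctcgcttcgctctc
Spp1: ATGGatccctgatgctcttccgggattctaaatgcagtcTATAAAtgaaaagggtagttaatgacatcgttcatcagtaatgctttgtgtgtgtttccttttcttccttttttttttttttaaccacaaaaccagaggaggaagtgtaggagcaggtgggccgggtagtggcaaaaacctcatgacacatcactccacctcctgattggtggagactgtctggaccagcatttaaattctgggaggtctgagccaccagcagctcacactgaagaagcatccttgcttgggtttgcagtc

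RefSeq windows were found for 7 of the 9 genes, and the set used here had none for Sox9 and Krt19. The longer Yy1 core AANATGGC, searched on both strands, was in 0 of the 8 windows of these 7 genes and in 6.05% of all 32851 promoter windows of the same length. CCAT was in the windows of Krt7, Krt18, Spp1, Epcam and Onecut1, against 83.1% of all windows, and not in those of Krt8 and Cftr. In Krt7 its first base lay at -15, counted from the start, and in Krt18 at -161. TATAAA was in the Krt8 window, where matches on the 2 strands overlap at the start itself, and in the upstream Spp1 window, against 13.6% of all windows. The windows of Krt7 and Krt8 differed in base composition, with 21 CpG dinucleotides in Krt7 and 6 in Krt8 (median of all windows 7). The other windows held 38 in Onecut1, 31 in Cftr, 17 in Krt18, 11 in Epcam and 3 in each window of Spp1. CpG counts thus did not order the genes as their transcript levels did. Matches are letters in a window and do not show binding.

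Sox9, which sets the identity of progenitors and ducts, had 5.43, 4.65, 4.36 and 4.61 CPM with the Yy1 plasmid (libraries 45, 46, 47 and 48), against 3.83, 3.43, 4.26 and 4.26 CPM with the empty plasmid (31, 32, 33 and 34). All 4 libraries with the Yy1 plasmid lay above all 4 with the empty plasmid, with a gap between library 47 and libraries 33 and 34 that was narrower than the spread within either group. The means were 4.76 ± 0.462 CPM with the Yy1 plasmid and 3.95 ± 0.402 CPM with the empty plasmid (SD, n = 4 each), a 1.21-fold difference. The log2 fold change was 0.27 (SE 0.125, 95% interval 0.02 to 0.53), with an unadjusted p of 0.0389 and an adjusted p of 0.89 over 15916 genes in edgeR's quasi-likelihood test. The two-sided exact permutation test of log2(CPM + 1) gave p = 0.0286, the smallest that 4 against 4 libraries allow. Sox9 thus did not pass over all genes, although its libraries did not overlap. The counts behind it were 177, 138, 145 and 147 with the Yy1 plasmid and 118, 91, 87 and 119 with the empty plasmid. Counting alone gives a coefficient of variation of 8.12% with the Yy1 plasmid and 9.82% with the empty plasmid at these depths, close to the 9.7% seen with the Yy1 plasmid and the 10.2% seen with the empty plasmid.

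Spp1, the osteopontin gene, had 5.89, 7.44, 5.63 and 5.8 CPM with the Yy1 plasmid (libraries 45, 46, 47 and 48), against 5.23, 5.53, 5.59 and 4.8 CPM with the empty plasmid (31, 32, 33 and 34). The groups did not overlap, but library 47 lay only just above empty plasmid 33, and library 46 lay far above the other 3 with the Yy1 plasmid. The means were 6.19 ± 0.841 CPM with the Yy1 plasmid and 5.29 ± 0.363 CPM with the empty plasmid (SD, n = 4 each), a 1.17-fold difference. The log2 fold change was 0.23 (SE 0.114, 95% interval -0.01 to 0.46; edgeR unadjusted p = 0.0566, adjusted p = 0.911), and the two-sided exact permutation p was 0.0286. Without Yy1 plasmid 46 the log2 fold change was 0.13. A gene model of uncertain status, Gm42793, lies on the same strand and overlaps Spp1. In it occur 14.3% of the 31-base words of Spp1 transcripts, but the deposited counts hold no row for this model.

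Krt7, a type II keratin of duct cells, had the highest count of the 9 genes. It had 7.67, 8.99, 8.03 and 7.34 CPM with the Yy1 plasmid (libraries 45, 46, 47 and 48), against 7.27, 6.74, 9.02 and 7.16 CPM with the empty plasmid (31, 32, 33 and 34). The groups overlapped, and the highest value of all was in empty plasmid 33. The means were 8.01 ± 0.713 CPM with the Yy1 plasmid and 7.55 ± 1.01 CPM with the empty plasmid (SD, n = 4 each). The log2 fold change was 0.09 (SE 0.102, 95% interval -0.12 to 0.31; edgeR adjusted p = 0.993; two-sided exact permutation p = 0.4). The interval leaves room for a change of up to 0.31 on the log2 scale. Counts per gene do not say which Krt7 transcripts they come from. An antisense gene, Gm671, overlaps Krt7 and had 0 counts in all 8 libraries, and whether counting used the strand is not given in the sources used here.

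**Figure D2:**
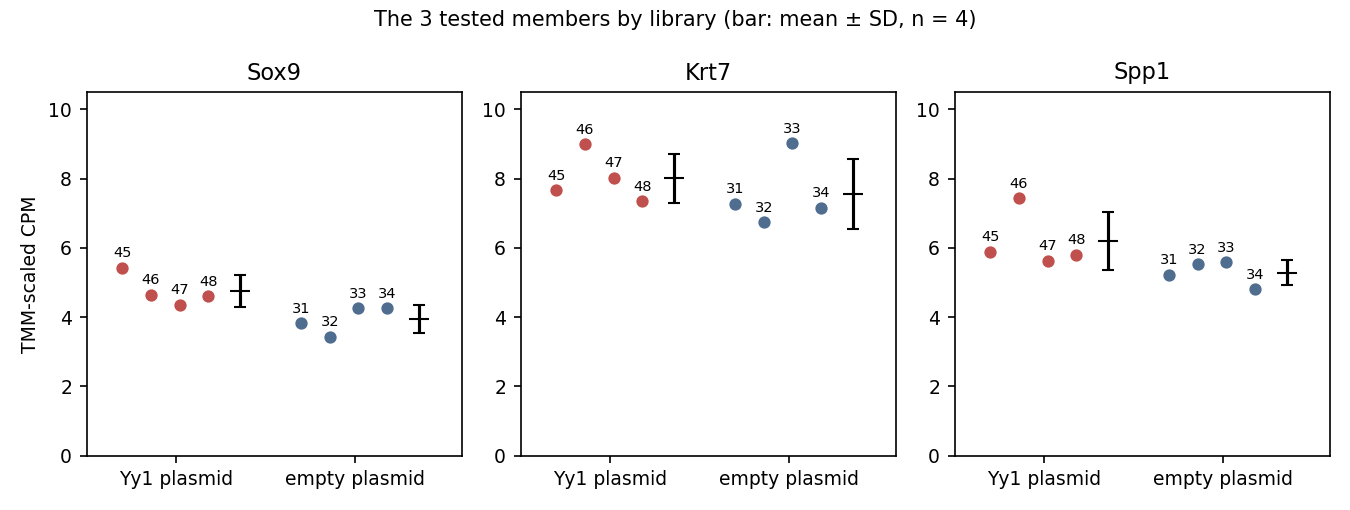
TMM-scaled CPM of Sox9, Krt7 and Spp1 in each library, with the sample number above each point, the Yy1 plasmid on the left and the empty plasmid on the right, and the mean ± SD of 4 libraries as a bar. The groups do not overlap for Sox9 and Spp1 and overlap for Krt7, and Yy1 plasmid 46 is the high Spp1 library at 7.44 CPM.

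Read together, 0 of the 3 tested genes were called at an adjusted p under 0.05 by edgeR, where 0.515% of all 15916 tested genes were, and DESeq2 called 0 of them and 0.534% of all. An unadjusted p under 0.05 was found for 1 of the 3 (Sox9), against 5.42% of all genes. The libraries did not overlap, with the Yy1 plasmid higher, for 2 of the 3 (Sox9 and Spp1), against 2.37% of all genes. All 3 log2 fold changes were above 0, against 48.6% of all genes, and their median was 0.228, against -0.002 over all tested genes. These counts rest on 3 genes at low counts. The libraries with the Yy1 plasmid were also the deeper ones on the whole, and with all libraries thinned to the smallest total the log2 fold changes were 0.298 for Sox9, 0.191 for Spp1 and 0.079 for Krt7.

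Per length, Spp1 ranked highest at 3.48 CPM per kilobase of exons (2.91 to 4.51 over the 8 libraries). Krt7 at 1.1 (0.956 to 1.28) and Sox9 at 1.05 (0.828 to 1.31) CPM per kilobase did not differ beyond their spread. With the length of the longest transcript in place of all exons, Krt7 stood at 1.9 CPM per kilobase, above Sox9. These levels lay below the median of 5.57 CPM per kilobase over all tested genes with an annotated length, at percentile 40 for Spp1, 22.9 for Krt7 and 22.3 for Sox9. The next gene, Krt18, was at 0.0818 CPM per kilobase, followed by Krt19 at 0.0547, Krt8 at 0.0388, Epcam at 0.033 and Onecut1 at 0.0117. All 5 of these ran down to 0 in at least 1 library, so their order is within their spread, and Cftr was at 0.

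The keratin pair of simple epithelia, Krt8 and Krt18, was at or near 0. Krt8 had 2, 4, 0 and 4 counts with the Yy1 plasmid (libraries 45, 46, 47 and 48) and 2, 4, 0 and 2 with the empty plasmid (31, 32, 33 and 34). Krt18 had 8, 10, 1 and 0 counts with the Yy1 plasmid and 1, 5, 0 and 3 with the empty plasmid. Krt19, a type I keratin used to mark ducts, had 4, 3, 3 and 5 counts with the Yy1 plasmid and 6, 2, 0 and 2 with the empty plasmid. The groups overlapped for all 3 genes. The floor of 3 counts, taken here as an approximate upper limit for a count of 0, corresponds to 0.0903 to 0.147 CPM in these libraries. A difference between the plasmids was not detectable at this depth. Processed pseudogenes share 31-base words with Krt8 (32.3% of its words) and Krt18 (11.4%), but Krt8-ps and the Krt18 copies Gm5200, Gm17847 and Gm7943 had 0 counts in all 8 libraries.

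Krt7 was thus detected while the common type I partners were at or near 0, and the keratin, Sox and Onecut families were examined after these values were seen. Of 53 protein-coding keratin genes, 4 could be tested and 11 had 0 counts in all 8 libraries. The 4 were Krt7, the type I keratins Krt10 and Krt23, and Krt222, a keratin-like gene. Krt10, known from the upper layers of the skin, had 5.67 ± 0.51 CPM with the Yy1 plasmid and 5.96 ± 1.82 CPM with the empty plasmid (SD, n = 4 each), which is -0.09 as log2 fold change (SE 0.175; edgeR adjusted p = 0.997). Krt222 had 4.25 ± 0.309 CPM with the Yy1 plasmid and 3.24 ± 0.174 CPM with the empty plasmid (SD, n = 4 each), which is 0.39 as log2 fold change (SE 0.126; edgeR unadjusted p = 0.00485, adjusted p = 0.392), and its libraries did not overlap. Krt23 had 0.381 ± 0.208 CPM with the Yy1 plasmid and 0.314 ± 0.193 CPM with the empty plasmid (SD, n = 4 each). The neuronal filament genes Nefm and Nefl were at 192 and 87.8 CPM per kilobase over all libraries, against 2.75 for Krt10, while Nefh and Prph, also of neurons, were at 0.363 and 0.138. The mesenchymal filament gene Vim was at 0.145 CPM per kilobase.

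Keratins of stratified epithelia, the layered lining of skin and mouth, appeared in 1 library of each group. Krt14 had 19 counts in Yy1 plasmid 48 and 40 in empty plasmid 31, and 0 in the other 6 libraries. Krt13 had 52 counts in Yy1 plasmid 48 and 27 in empty plasmid 31, and at most 2 elsewhere. Krt5 had 23 counts in each of these libraries and at most 3 elsewhere. Of 26 genes listed for stratified epithelium after these values were seen, 18 had their highest 2 levels in these libraries and 1, Dsg1a, was at 0 in all 8. The list summed to 15.2 CPM in Yy1 plasmid 48, against 6.7 to 9.6 CPM in the other 3 with that plasmid, and to 15.7 CPM in empty plasmid 31, against 7.19 to 8.33 CPM in the other 3. Krt8 and Krt18 were not high in them, with 4 and 0 counts in Yy1 plasmid 48 and 2 and 1 in empty plasmid 31. Without both libraries the log2 fold changes were 0.274 for Sox9, 0.250 for Spp1 and 0.113 for Krt7.

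**Figure D3:**
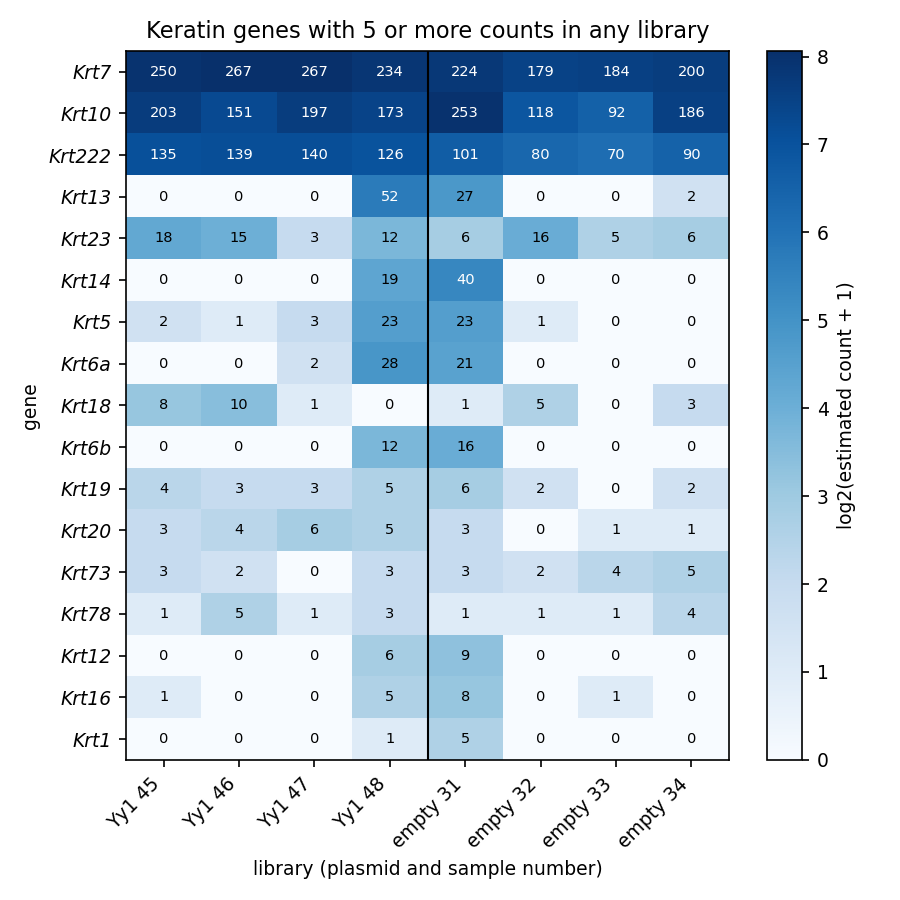
Estimated counts of the 17 keratin genes with 5 or more counts in any library (rows, ordered by total) in the 4 libraries with the Yy1 plasmid (left of the line) and the 4 with the empty plasmid (right), with colour giving log2(count + 1). Krt7, Krt10 and Krt222 run through all libraries, while Krt13, Krt14, Krt5, Krt6a and Krt6b are seen mainly in Yy1 48 and empty 31.

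Onecut1, the other transcription factor of the list, had 0, 1, 1 and 2 counts with the Yy1 plasmid (libraries 45, 46, 47 and 48) and 1, 6, 0 and 0 with the empty plasmid (31, 32, 33 and 34). It was therefore not detectable beyond the floor of 3 counts in 7 of the 8 libraries. A long noncoding gene on the same strand, Gm20649, shares 53% of the 31-base words of Onecut1 and had 0 counts in all 8 libraries. The paralogs of Onecut1 were present. Onecut2, which binds the same motif, had 74.6 ± 8.34 CPM with the Yy1 plasmid and 68.7 ± 8.61 CPM with the empty plasmid (SD, n = 4 each), and Onecut3 had 2.21 ± 0.299 CPM with the Yy1 plasmid and 1.81 ± 0.179 CPM with the empty plasmid. Neither passed the test (edgeR adjusted p = 0.991 and 0.953). In the Sox family, Sox9 stood at 1.05 CPM per kilobase over all libraries, below Sox12 at 24.6, Sox4 at 17.4 and Sox5 at 2.93. Of 19 Sox genes, 5 could be tested and 0 were called. Sox8, a close relative of Sox9, was at 0.472 CPM per kilobase.

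Epcam had 2, 5, 0 and 0 counts with the Yy1 plasmid (libraries 45, 46, 47 and 48) and 5, 5, 0 and 0 with the empty plasmid (31, 32, 33 and 34). Both groups thus held libraries with a few counts and libraries with none. Cftr had 0 counts in all 8 libraries. For a library taken alone, the floor of 3 counts corresponds to 0.0903 CPM in the deepest and 0.147 CPM in the shallowest. Its antisense neighbour Gm15592 was also at 0.

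Genes that work beside the 9 were read from lists of names. Of 26 further duct and progenitor genes 18 could be tested and 0 were called, with a median log2 fold change of -0.014. Foxa2, a pioneer factor of the whole foregut endoderm, had 69.1 ± 4.94 CPM with the Yy1 plasmid and 72.8 ± 1.56 CPM with the empty plasmid (SD, n = 4 each). Nkx6-1, which marks progenitors and later beta cells, had 51 ± 4.41 CPM with the Yy1 plasmid and 54.8 ± 2.1 CPM with the empty plasmid (SD, n = 4 each). Pkd2, a cation channel of primary cilia, was 0.997-fold with the Yy1 plasmid over the empty plasmid (edgeR adjusted p = 0.997). The progenitor factors Pdx1, with 1 count in 1 library, and Ptf1a, with 0, were at the floor.

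Notch and Hippo signalling, which uphold Sox9 and duct fate in the embryo, gave 11 testable genes of 25, of which 0 were called (median log2 fold change -0.008). The log2 fold change was -0.09 (SE 0.0576) for Hey1, a Notch target, and 0.08 (SE 0.0498) for Tead1, the DNA-binding partner of Yap1. Ccn2, a Hippo target, had 41 ± 2.33 CPM with the Yy1 plasmid and 37.7 ± 1.52 CPM with the empty plasmid (SD, n = 4 each), with an unadjusted p of 0.0301 and an adjusted p of 0.826 in edgeR. Yap1 itself, the Hippo coactivator, had 4, 10, 6 and 7 counts with the Yy1 plasmid and 11, 7, 6 and 6 with the empty plasmid, too few to be tested.

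Among 27 genes of epithelial junctions and epithelial identity, 12 could be tested and 0 were called (median log2 fold change -0.011). The most abundant testable ones per length were general junction parts. Ctnnb1 (beta-catenin) was at 88.7, Tjp1 (a tight junction scaffold) at 13 and Ctnnd1 (p120 catenin) at 10.6 CPM per kilobase. Named after their values were seen, the transcription factor genes Elf3, Grhl1 and Ehf could also be tested, at 3.64, 2.62 and 0.75 CPM per kilobase. Grhl2, tested as well, was at 0.0789 CPM per kilobase. Of the 15 that could not be tested, 12 had at most 10 counts in every library. Among these, named after their values were seen, were Cdh1 (E-cadherin), with 0 to 7 counts per library, the epithelial splicing factors Esrp1 and Esrp2, with 0 to 4 each, and Cldn7, a claudin that binds Epcam, also with 0 to 4. Cdh2, which encodes N-cadherin, stood at 195 ± 1.82 CPM with the Yy1 plasmid and 198 ± 1.91 CPM with the empty plasmid (SD, n = 4 each). Zeb1, a repressor of epithelial genes, had 77.5 ± 4.09 CPM with the Yy1 plasmid and 77.2 ± 2.86 CPM with the empty plasmid (SD, n = 4 each). Snai2, another such repressor, had 18 ± 1.14 CPM with the Yy1 plasmid and 17.9 ± 1.21 CPM with the empty plasmid. Of 13 genes of the mesenchymal transition 10 could be tested and 0 were called (median log2 fold change 0.022). Cdh2, Snai2 and Zeb1 were its most abundant genes per length. Tgfbr1 at 7.39 and S100a4 at 3.49 CPM per kilobase over all libraries came next, and the rest of the list was lower. Vim and Fn1 were at 0.145 and 0.0374 CPM per kilobase over all libraries. Snai1 had at most 1 count and Tgfbr2 at most 3 in any library, and Twist1 had 0 in all 8.

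Direct partners of single genes gave no call either. Of 24 keratins and keratin-binding proteins 10 could be tested and 0 were called (median log2 fold change 0.037); the linker genes Dst and Plec, which tie filaments to other structures, had log2 fold changes of 0.08 (SE 0.0481) and 0.04 (SE 0.0404), and the integrin gene Itga6 of 0.03 (SE 0.0406). Of 14 osteopontin receptors and related matrix genes 5 could be tested and 0 were called (median 0.037). Itgav, Itgb1 and Itgb5, which form integrins that bind osteopontin, stood at 22.3, 96.7 and 22.3 CPM per kilobase over all libraries, while Cd44, another receptor, had 0 to 4 counts per library. Of 23 symbols listed for duct ion and fluid transport 22 were matched, 10 could be tested and 0 were called (median 0.027). The unmatched symbol, Nherf1, is another name of Slc9a3r1, which was matched. Car2 (carbonic anhydrase) and Slc4a2 (an anion exchanger), among its most abundant genes per length, had log2 fold changes of 0.06 (SE 0.0443) and -0.01 (SE 0.0425). Sctr, the secretin receptor of duct cells, had at most 1 count in any library.

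Markers of other cells gave no called gene. The 5 testable acinar genes had a median log2 fold change of 0.119. Cela1, an elastase gene, and Nr5a2, an acinar factor, had log2 fold changes of 0.03 (SE 0.094) and -0.03 (SE 0.171). Of 19 stromal, endothelial and immune genes 4 could be tested, with summed levels of all 19 from 24.8 to 28.6 CPM with the Yy1 plasmid and from 26 to 28 CPM with the empty plasmid. The pericyte gene Rgs5 made up most of this, at 20.3 ± 0.665 CPM with the Yy1 plasmid and 20.4 ± 0.978 CPM with the empty plasmid (SD, n = 4 each). Cd68, a macrophage gene, had 0.797, 0.943, 0.692 and 0.815 CPM with the Yy1 plasmid (libraries 45, 46, 47 and 48), against 1.14, 1.28, 0.98 and 1.18 CPM with the empty plasmid (31, 32, 33 and 34). All 4 libraries with the Yy1 plasmid lay below all 4 with the empty plasmid, and the log2 fold change was -0.50 (SE 0.24; edgeR unadjusted p = 0.0483, adjusted p = 0.909; two-sided exact permutation p = 0.0286). Col1a2, a fibroblast collagen gene, had 3.01 ± 0.274 CPM with the Yy1 plasmid and 3.27 ± 0.53 CPM with the empty plasmid (SD, n = 4 each). The part of these markers in the levels of Sox9 and Spp1 was not tested.

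**Figure D4:**
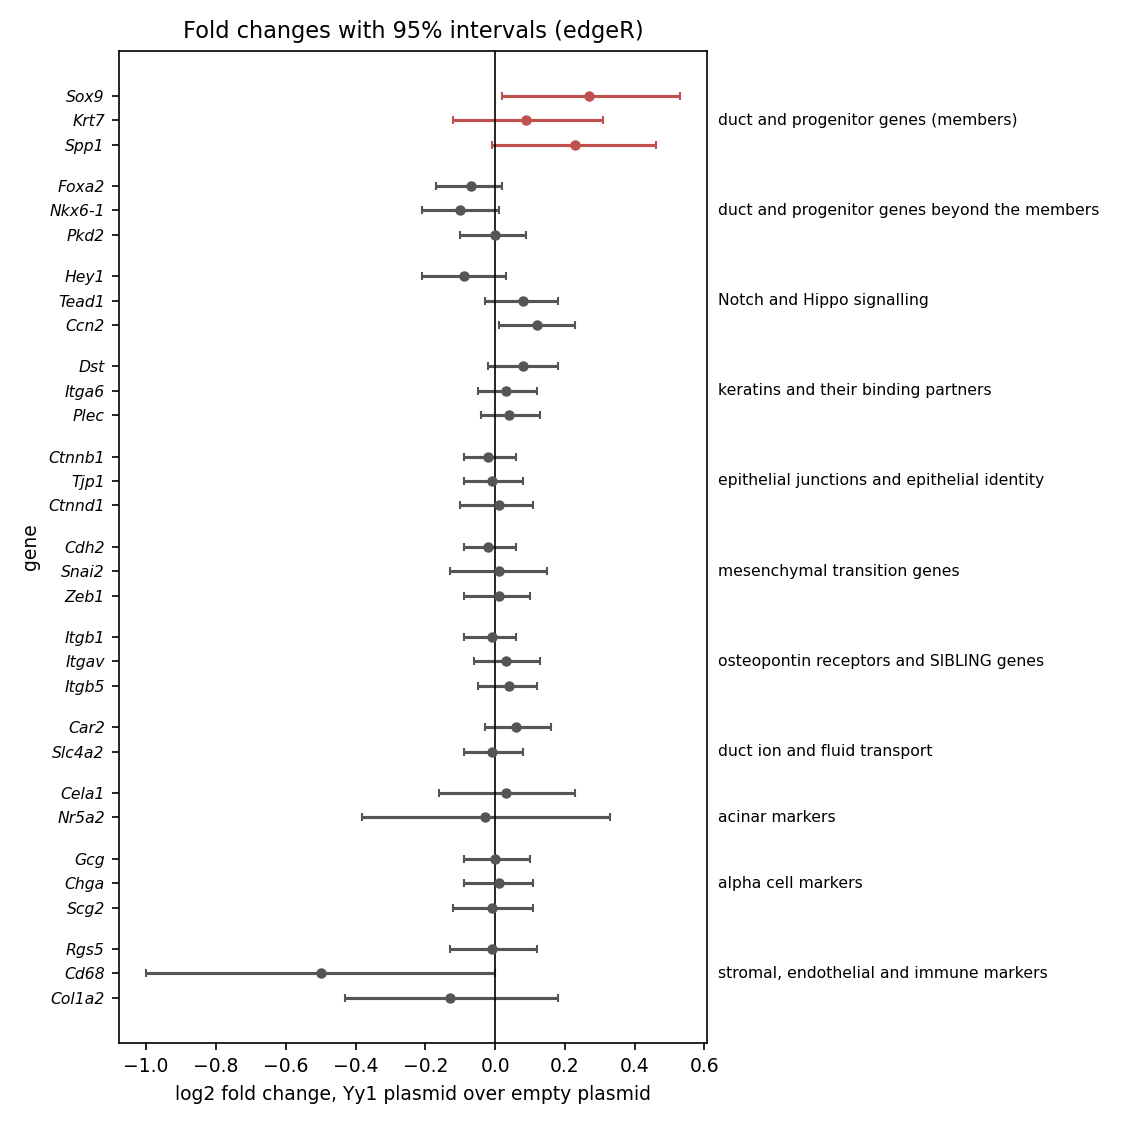
Log2 fold changes (Yy1 plasmid over empty plasmid) with 95% intervals from edgeR for the 3 tested duct genes (red) and for up to 3 of the most abundant tested genes per length of each list (grey). The intervals of Sox9 (0.02 to 0.53) and Spp1 (-0.01 to 0.46) lie mostly above 0, and 0 of the plotted genes passed over all genes.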

How the data were processed

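Polyadenylated RNA of 8 samples was extracted with Trizol and columns and made into directional libraries, per the labels' protocols. Fastp, kallisto and GRCm39 are named in the submitters' processing notes, without versions. The authors deposited estimated counts per gene, made with these tools per the submitters' processing notes and not scaled for depth. They were rounded to whole numbers here, and each column was tied to a sample by its description. Symbols, exon lengths and 31-base words came from GENCODE M21 (an older build, so no gene coordinates are given), promoters from RefSeq.

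Genes of the whole table that passed filterByExpr (count 10, total 15) were normalized with TMM and tested with edgeR 4.0.16 in R 4.3.3 (robust quasi-likelihood test, 2-sided, Benjamini-Hochberg threshold 0.05), with no covariate. The fit was tested on simulated data. A standard error is the log2 fold change divided by the square root of F. CPM use TMM-scaled library sizes; n is 4 libraries a group. Exact permutation ran over 70 arrangements. Replicate pairs differed by more than sampling noise (chi-square per degree of freedom 2.92 to 13.9). Floors cover counting error only. Alternatives used DESeq2 1.42.0, limma 3.58.1 (voom), other scalings and filters, thinning and left-out libraries.

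The genes and lists were chosen with earlier results of these data known. Of each list, called genes and the 3 tested genes most abundant per kilobase were named; any other gene was named after its values were seen. Some genes that the rule picks are not reported here. Genes of like pattern were to be named only for duct genes whose mean log2 CPM reached 4, and 0 did.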

Additional observations from a re-analysis of the deposited data

Results flagged for a closer look

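Among the 20 groups of 4 libraries examined (the duct genes with any counts, Yy1 and Gcg, each with either plasmid), 2 held a library far from the other 3. The cutoff's rate of about 1 in 20 holds for normally spread values and not for counts near 0, such as those of Onecut1. No excess over chance can be read from this. Spp1 stood at 7.44 CPM in Yy1 plasmid 46, and its gap to the next library was 0.855 of the group's range. Onecut1 stood at 0.226 CPM, or 6 counts, in empty plasmid 32, with a gap of 0.856 of the range, in a group whose other libraries had 0 or 1 counts.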

How the results depend on the processing

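Under all 19 alternatives 0 of the duct genes were called, and without a filter on low counts, where 8 of the 9 could be tested, the lowest adjusted p among them was 0.736. The log2 fold changes of the 3 tested genes were above 0 in all 19, from 0.20 to 0.32 for Sox9, 0.13 to 0.27 for Spp1 and 0.03 to 0.18 for Krt7. The value of Krt7 was 0.18 without empty plasmid 33 and 0.03 without Yy1 plasmid 46; that of Spp1 was 0.13 without Yy1 plasmid 46. Yy1 ran from 4.84 to 4.94. Of all genes, 82 were called, against 174 with no filter, 54 with at least 1 CPM in 4 libraries, 10 with only protein-coding genes, and 65 to 87 without single libraries. The filters and the restriction to protein-coding genes change which genes are tested, and no other cause was tested. The 10 lists other than that of stratified epithelium had 0 calls with edgeR, DESeq2 and no filter. Leaving out libraries 31 and 48 together was chosen after seeing the data. No paired analysis was possible because the groups share no sample numbers. Depth limits Krt8, Krt18, Krt19, Epcam, Onecut1 and Cftr to statements about the floor.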

Other observations

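Of 5 myeloid genes read after their values were seen, 4 were highest in Yy1 plasmid 47. S100a9 had 54 counts and S100a8 had 34 in Yy1 plasmid 47, against at most 3 and 0 in the other 7 libraries. Adgre1, a macrophage surface gene, had 10 counts in Yy1 plasmid 47 and 0 elsewhere, and Lyz2, a lysozyme gene, had 34 there, against at most 15 elsewhere. The other, Cd68, was lowest there, at 0.692 CPM, against 0.797 to 1.28 CPM in the other 7 libraries. Sox9 at 4.36 CPM and Spp1 at 5.63 CPM were the lowest of the 4 libraries with the Yy1 plasmid there, and Krt7 at 8.03 CPM was the second highest.

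Ptprc, which encodes the leukocyte protein CD45, had 19, 17, 9 and 10 counts with the Yy1 plasmid (libraries 45, 46, 47 and 48) and 2, 5, 2 and 2 with the empty plasmid (31, 32, 33 and 34). It did not reach the minimum count and was not tested.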
